A study of Mus musculus with 16 samples.

Results

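Natural killer (NK) cells read the surface of other cells through a set of inhibitory and activating receptors, and 10 genes of that set were followed here in the immune cells of B16 mouse melanomas: Klrk1, Klra4, Klra7, Klra8, Klra9, Klrc1, Klrc2, Klrd1, Klrb1c and Ncr1. They were taken by symbol, and all 10 were found among the 32285 genes listed in each of the 8 count matrices. Their levels are given in cells gated as NK and as CD8 T cells, in tumours with and without beta-2 microglobulin, and with and without an agonistic antibody against CD40.

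C57BL/6J mice carried subcutaneous tumours grown from 1000000 Bro4.1 B16 melanoma cells, and the tumour-infiltrating cells were enriched on CD45 beads on day 14 and profiled by droplet single-cell RNA sequencing of the 3' ends of transcripts. The 4 groups were mice with control B16 cells given rat IgG2a isotype antibody (control isotype, 5 mice in 2 pools), control B16 cells given anti-CD40 (control CD40, 2 mice in 1 pool), B2m-null B16 cells given isotype antibody (B2m-null isotype, 5 mice in 2 pools) and B2m-null B16 cells given anti-CD40 (B2m-null CD40, 4 mice in 2 pools). Each dose was 100 µg into the peritoneum, on days 6, 9 and 12. The sample labels attach the B2M KO genotype to the mouse, whereas the design text attaches it to the implanted cells, and the design text was followed. Mice of a pool were told apart by hashtag antibodies and ran on 1 lane. Each hashtag counted in a lane was taken as 1 mouse, so every number of mice rests on that reading, while the labels list 3 hashtags per pool. The control CD40 pool was run on 2 lanes as technical replicates, so what is particular to that pool and what is particular to that group cannot be told apart.

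NK cells kill cells that have lost major histocompatibility complex (MHC) class I, because class I molecules engage inhibitory receptors. B2m encodes the light chain that classical class I molecules and Qa-1 need to reach the cell surface. In mice, the Ly49 family encoded by the Klra genes binds class I: Klra7 encodes the inhibitory Ly49G2, Klra9 the inhibitory Ly49I, Klra4 the activating Ly49D and Klra8 the activating Ly49H, which recognises a protein of mouse cytomegalovirus. Klrd1 encodes CD94, the shared partner of the inhibitory NKG2A (Klrc1) and the activating NKG2C (Klrc2), whose ligand is the non-classical class I molecule Qa-1 (H2-T23). Klrk1 encodes NKG2D, which signals through the adaptors DAP10 (Hcst) and DAP12 (Tyrobp) and binds stress-induced ligands, Ncr1 encodes the activating receptor NKp46, and Klrb1c encodes NK1.1. CD40 is a receptor of dendritic cells and other antigen-presenting cells, and activated CD8 T cells can carry several of the same receptors.

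Of the 10 genes, 9 lie on mouse chromosome 6 within the NK gene complex and Ncr1 lies on chromosome 7, in the GRCm38 build with Gencode vM21 annotation; all are protein coding. Klrb1c spans chr6:128778485-128789215, Klrd1 chr6:129591782-129598775, Klrk1 chr6:129610323-129623864, Klrc2 chr6:129647496-129660689 and Klrc1 chr6:129666015-129678973. The Ly49 genes follow as Klra4 at chr6:130043731-130067271, Klra8 at chr6:130115226-130129898, Klra9 at chr6:130178675-130193112 and Klra7 at chr6:130218605-130233322. Ncr1 spans chr7:4337724-4345164. Klrd1 and Ncr1 are on the forward strand and the other 8 genes on the reverse strand.

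The Ly49 genes are close copies of one another, which matters both for their promoters and for counting. The 250 bases before an annotated start of Klra4 and of Klra7 are shown. They were picked because Klra7, an inhibitory Ly49, passed a test in NK cells and Klra4, an activating one, did not. No test compared the 2 genes, and Klra9, also inhibitory, did not pass either. Klra7 and Klra8 have 2 annotated windows each, and the window sharing the longest run with Klra4 was taken. The run lengths given are therefore selected for likeness. Capitals mark the longest run of 17 identical bases that the 2 windows share, both on the reverse strand, from RefSeq on GRCm38.p6.
Klra4, chr6:130067272-130067521: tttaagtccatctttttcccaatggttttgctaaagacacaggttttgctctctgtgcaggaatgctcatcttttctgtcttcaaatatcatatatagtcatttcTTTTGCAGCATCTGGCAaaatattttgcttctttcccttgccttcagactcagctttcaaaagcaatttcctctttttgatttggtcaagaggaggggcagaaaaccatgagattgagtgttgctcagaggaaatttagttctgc
Klra7, chr6:130233323-130233572: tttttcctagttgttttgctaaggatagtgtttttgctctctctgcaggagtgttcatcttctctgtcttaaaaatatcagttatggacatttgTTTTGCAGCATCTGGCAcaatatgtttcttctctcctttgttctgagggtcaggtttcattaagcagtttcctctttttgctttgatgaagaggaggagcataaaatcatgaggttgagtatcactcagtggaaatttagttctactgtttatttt
The longest run that Klra4 shares with Klra8 is 27 bases and with Klra9 19 bases. The windows of Klrk1 (reverse strand) and Ncr1 (forward strand) are shown as members outside the Ly49 family, with capitals at TGTGGT or its reverse complement ACCACA, the core letters of RUNX binding sites.
Klrk1, chr6:129623865-129624114: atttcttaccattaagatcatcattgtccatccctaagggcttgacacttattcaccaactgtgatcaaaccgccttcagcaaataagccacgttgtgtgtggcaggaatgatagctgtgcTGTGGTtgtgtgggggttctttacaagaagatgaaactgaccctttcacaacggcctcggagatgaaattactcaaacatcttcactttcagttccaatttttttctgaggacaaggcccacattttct
Ncr1, chr7:4337474-4337723: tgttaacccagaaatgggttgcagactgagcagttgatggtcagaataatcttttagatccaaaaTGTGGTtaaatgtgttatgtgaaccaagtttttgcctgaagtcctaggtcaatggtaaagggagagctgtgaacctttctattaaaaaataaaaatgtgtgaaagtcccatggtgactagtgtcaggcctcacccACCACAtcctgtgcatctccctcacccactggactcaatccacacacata
Windows were available for 9 of the 10 members. On either strand, TGTGGT occurred in 14.05% of 32851 promoter windows of this length, once each in the windows of Klrk1, Klrb1c and Klrc1, 2 times in those of Klrc2 and Ncr1, and in none of the windows of the 4 Ly49 members. GGTGTG or CACACC, the core letters of T-box sites, occurred in 16.28% of all windows and in 0 member windows; the 2 motifs can overlap. Both motifs were chosen after the sequences had been seen, and a match is a description of letters only.

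Copies limit how exactly a 3' tag names its gene. Within the last 500 bases of the transcripts, 38.69% of 60-base windows of Klra9 also occurred in another gene (Klra3, Klra8 or Klra11-ps), as did 37.46% of those of Klrc1 (Klrc2, Klrc3), 17.43% of Klrc2, 17.34% of Klra7 (Klra13-ps) and 16.21% of Klrb1c (Klrb1a, Klrb1b, Gm44511). The share was 6.35% for Klra8 and 2.49% for Klra4. For Klrk1, Klrd1 and Ncr1 it was 0.0%. Levels of Klra9 and Klrc1 are therefore the least certain of the 10.

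The 8 lanes held 116552 cell barcodes and 541.1 M unique molecular identifiers (UMIs, each standing for 1 captured transcript), between 46.0 M and 99.3 M per lane. Hashtags assigned 36.3% of barcodes to a mouse in B2m-null isotype replicate 1, the lowest lane, and 90.9% in the highest, and 74740 assigned cells passed the filters. Pairs of lanes shared 41 to 92 barcodes, at most 0.623% of the smaller lane. As a check of the labels, B2m stood at 953 to 1932 CPM (counts scaled to 1000000 UMIs of the gate in that mouse) in the melanoma-like cells of control isotype mice and 1550 to 1974 in control CD40, against 128 to 285 in B2m-null isotype and 363 to 692 in B2m-null CD40. The ranges of the 2 tumour genotypes did not overlap, though the B2m-null values rest on 59 and 17 cells.

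The NK gate needed 4 of 10 NK marker genes that include none of the 10 receptors. These were Eomes, Gzma, Prf1, Nkg7, Klre1, Klri2, Txk, Il2rb, Tyrobp and Fcer1g. The gate also needed a UMI of Tyrobp or Fcer1g in each cell, and few transcripts of alpha-beta T, B and myeloid cells. It held 2287 cells: 979 in control isotype, 465 in control CD40, 522 in B2m-null isotype and 321 in B2m-null CD40, with a median of 1182, 1201, 1723.5 and 2137 UMIs per cell. The CD8 T gate needed T-cell and Cd8 transcripts, and held 12766 cells: 1587, 6485, 618 and 4076 in the same order of groups, with medians of 4454, 1741, 3493 and 2566 UMIs. Counts were summed per mouse, and mice with under 20 gated cells were left out: B2m-null isotype mouse 3 for NK cells (8 cells) and mouse 2 for CD8 T cells (18 cells). Each gate then kept 5 isotype and 2 anti-CD40 mice with control tumours, and 4 of each with B2m-null tumours.

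Klrd1 was the most abundant of the 10 receptors in NK-gated cells and Klrc1 the least. Because 1 molecule gives 1 tag in 3' counting, CPM levels can be compared between genes without a correction for length. Shared 3' sequence still limits the comparison, most for Klra9 and Klrc1 (38.69% and 37.46% of windows shared). Mean levels over 15 mice were 1003 ± 262 CPM (SD) for Klrd1, 541 ± 157 for Klrk1, 464 ± 124 for Klra4, 427 ± 183 for Klra7, 347 ± 110 for Klrb1c, 345 ± 137 for Klra8 and 337 ± 84.1 for Ncr1. Klrc2 (195 ± 63.1), Klra9 (166 ± 61.3) and Klrc1 (93.1 ± 28.0) were lower. From Klrk1 down to Ncr1, and from Klrc2 to Klra9, neighbours in this order lay within 1 SD of each other.

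In CD8 T-gated cells, over 15 mice, Klrd1 averaged 456 ± 168 CPM, Klrk1 180 ± 55.9, Klrc2 81.1 ± 22.2, Klrc1 66.7 ± 25.1 and Klra7 29.1 ± 27.4, with 4.13 CPM in the lowest mouse. The other 5 averaged 5.61 (Klra9) to 10.1 CPM (Klrb1c). Those 5 had from 176 counts (Klra9) to 394 counts (Klrb1c) over all mice.

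Elsewhere Klrd1 and Klrk1 were the widest spread. CD4 T cells held 199 ± 75.0 CPM of Klrd1 and 107 ± 53.8 of Klrk1 (11 mice), and regulatory T cells 165 ± 67.3 and 69.6 ± 31.6 (10 mice). Plasmacytoid dendritic cells, a type-I-interferon-producing lineage, held 439 ± 79.1 CPM of Klrd1 but 50.05 ± 21.9 of Klrk1 (7 mice). In conventional dendritic cells (cDC) Klrk1 stood at 154 ± 61.8 and Klrd1 at 125 ± 77.8 (16 mice), with the other 8 at or below 0.539 CPM. The highest member was Klrk1 at 16.2 ± 10.4 CPM in monocytes and macrophages (16 mice) and Klrd1 at 4.49 ± 6.11 in melanoma-like cells (6 mice). B cells held Klrd1 at 24.3 ± 31.2 and Klrk1 at 21.2 ± 30.1 CPM, each from 10 counts over 7 mice, and neutrophils at most 3.43 CPM of any member. Gamma-delta T cells reached 20 cells in 1 mouse, where Klrd1 was 804, Klrk1 572, Klrc2 423, Klra7 328 and Klrb1c 180 CPM.

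**Figure D1:**
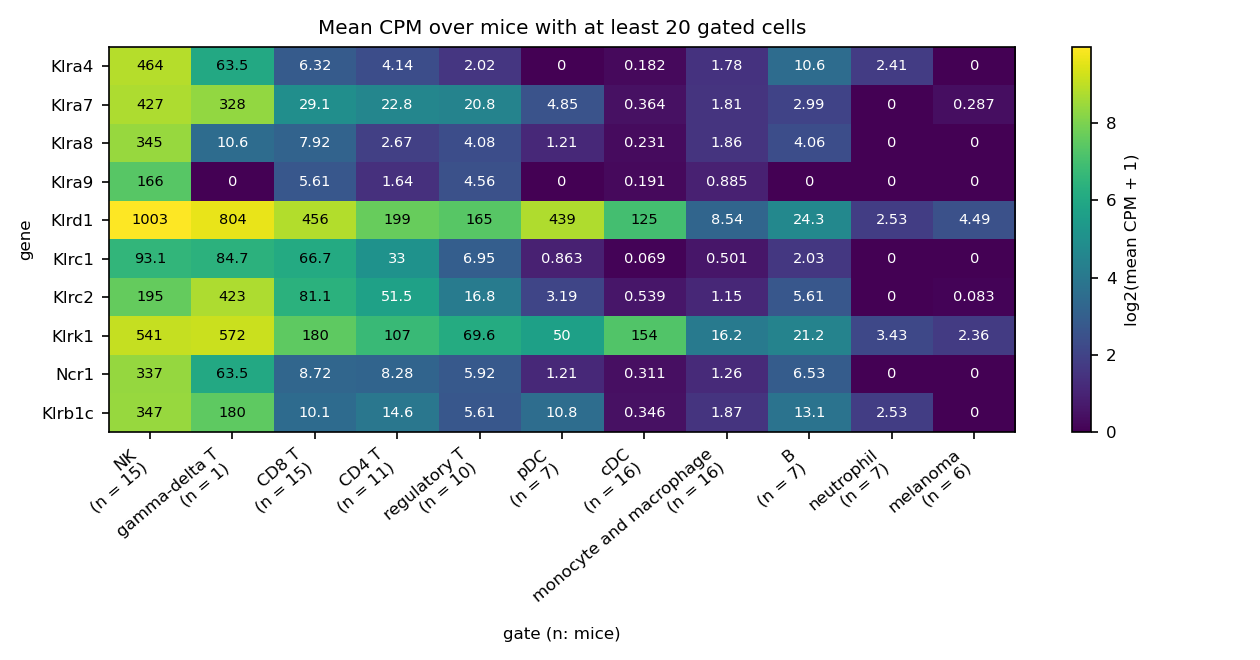
Mean level of each of the 10 receptor genes (rows) in each gate (columns), coloured by log2(mean CPM + 1) and printed as mean CPM over the mice with enough gated cells. NK cells hold all 10, CD8 T cells hold Klrd1 at 456 and Klrk1 at 180 CPM, and cDC hold only Klrk1 and Klrd1 above 1 CPM.

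Counted as shares of cells with at least 1 UMI at equal depth, Klrd1 and Klrk1 again came first. Only cells with at least 2000 UMIs could be thinned to that depth. After thinning to 2000 UMIs per cell (745 NK-gated cells, median 3274 UMIs before), Klrd1 was seen in 77.05% of NK cells, Klrk1 in 59.7%, Ncr1 in 42.7%, Klrb1c in 40.1%, Klra7 in 32.8%, Klra4 in 30.7%, Klrc2 in 28.7%, Klra8 in 28.2%, Klra9 in 16.6% and Klrc1 in 13.2%. Without thinning, Klrd1 was seen in 75.0%, Klrk1 in 62.2% and Klra7 in 35.7% of 2287 cells. Among 7077 thinned CD8 T cells (median 3847 before), Klrd1 was seen in 46.8%, Klrk1 in 27.4%, Klrc2 in 15.035%, Klrc1 in 13.0% and Klra7 in 3.34%, and the other 5 in at most 1.81%. For comparison, monocytes and macrophages (median 5598 before thinning) showed Klrk1 in 3.17%, Klrd1 in 1.19%, Klra7 in 0.229% and Klrc1 in 0.116%. Whether these transcripts came from free RNA was not tested. The shares of Klrd1, Klrk1, Klrc1 and Klra7 in CD8 T cells were above those of monocytes and macrophages.

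Ly49 genes are known to be switched on in some NK cells and not in others. Of the 745 thinned NK-gated cells, 41.74% showed none of Klra4, Klra7, Klra8 and Klra9, 24.16% showed 1, 19.73% showed 2, 12.75% showed 3 and 1.61% showed all 4. A gene can be missed at this depth, which raises the share of cells with none. Sequence shared between Klra8 and Klra9, and doublets within a mouse, could raise the number seen. No limit is therefore read from these shares.

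In NK-gated cells of B2m-null tumours, Klra7 and Klrd1 rose with anti-CD40, by 2.26-fold and 1.75-fold. They were the only 2 of the 10 receptors to pass the test in that comparison, where 4.82% of the 6114 genes tested passed. Neither call held in every alternative fit. The test was edgeR's quasi-likelihood test over all genes with Benjamini-Hochberg adjustment and a threshold of 0.05, and it is the source of every adjusted p given here unless another tool is named. In the other 4 NK comparisons and in all 5 CD8 T comparisons, 0 of the 10 passed. The members differ in role, so they are taken in turn. Where the mice of 2 groups are said not to overlap, the share of all genes that also separate was not counted. With groups this small, ranges can separate without a difference, so separation alone is not read as a result.

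Klra7 (Ly49G2, inhibitory) in B2m-null tumours was 131, 312, 407 and 324 CPM in the 4 mice given isotype and 795, 538, 482 and 807 CPM in the 4 given anti-CD40. Every treated mouse was above every isotype mouse. The change was 1.18 ± 0.26 on the log2 scale (SE, adjusted p = 0.01193). In control tumours the values were 285, 258, 389, 388 and 439 CPM under isotype and 499 and 348 under anti-CD40, and these ranges overlapped (log2 change 0.36 ± 0.28, adjusted p = 0.577). The difference between the 2 CD40 effects, tested as an interaction, was 0.82 ± 0.39 (adjusted p = 0.3832), so Klra7 was not shown to respond differently in the 2 tumour genotypes.

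The call for Klra7 rested in part on the pools and on how NK cells were drawn. That call was lost with NK cells taken from clusters, with thinned cells and with at least 50 cells per mouse. It was also lost with pools in place of mice, with or without unassigned cells. In the 23 fits that left out a mouse or lane, it was lost in 1. Those fits covered all 4 groups, so some removed no mouse of the groups compared. The change of Klra7 was positive in all 35 alternative fits (0.64 to 1.62) and passed in 28 of them. It was 0.98 (adjusted p = 0.0756) without B2m-null isotype replicate 1, whose 2 mice in this fit hold 24 and 30 NK cells and whose lane had 36.3% of barcodes assigned. It was 1.15 (adjusted p = 0.2) with pools in place of mice, and 0.66 (adjusted p = 0.177) in a stricter gate needing 6 of the 10 NK markers.

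Markers of other cells and of the gate itself moved with the rise of Klra7 and Klrd1, and their part in it was not tested. The summed level of the 10 gate markers was 18670 to 23529 CPM in B2m-null CD40 mice against 6399 to 10928 in B2m-null isotype, 10566 to 13968 in control isotype and 14686 to 18755 in control CD40. The 7 cDC markers summed to 7.4 to 53.1 CPM against 106.7 to 423.4, with 3 of 7 at 0 in B2m-null CD40 and 0 of 7 in B2m-null isotype. The 6 T-cell markers summed to 412 to 951 against 302 to 547 CPM, with 1 of 6 at 0 under anti-CD40. For 8 markers of ILC1, a tissue-resident relative of NK cells, the sums were 361 to 600 against 303 to 706 CPM. All 4 B-cell markers were at 0 in both groups, and the median depth per cell was 2137 against 1723.5 UMIs.

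The other Ly49 genes gave no call. Klra9 (Ly49I, inhibitory) stood at 153, 50.4, 150 and 155 CPM in B2m-null isotype mice and 302, 122, 274 and 169 in B2m-null CD40 mice, so 1 treated mouse fell among the isotype mice. Its log2 change was 0.81 ± 0.30 (adjusted p = 0.1191), close in size to that of Klrd1. In control tumours it was 203, 131, 136, 175 and 130 CPM under isotype and 203 and 143 under anti-CD40.

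Klra4 (Ly49D, activating) stood at 284, 272, 529 and 563 CPM in B2m-null isotype and 449, 419, 612 and 460 in B2m-null CD40 mice, with overlapping ranges (log2 change 0.30 ± 0.26, adjusted p = 0.5725). The control mice held 468, 323, 394, 667 and 461 CPM under isotype and 656 and 398 under anti-CD40 (0.27 ± 0.29, adjusted p = 0.6946). Klra8 (Ly49H, activating) stood at 284, 50.4, 364 and 401 CPM in B2m-null isotype and 236, 234, 649 and 434 in B2m-null CD40 (0.57 ± 0.37, adjusted p = 0.4022). In control tumours it was 308, 303, 286, 425 and 309 CPM under isotype and 519 and 368 under anti-CD40 (0.53 ± 0.40, adjusted p = 0.5535). The 2 activating Ly49 genes thus varied as much within a group as between groups. No test compared Klra7 with Klra4 or Klra8.

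**Figure D2:**
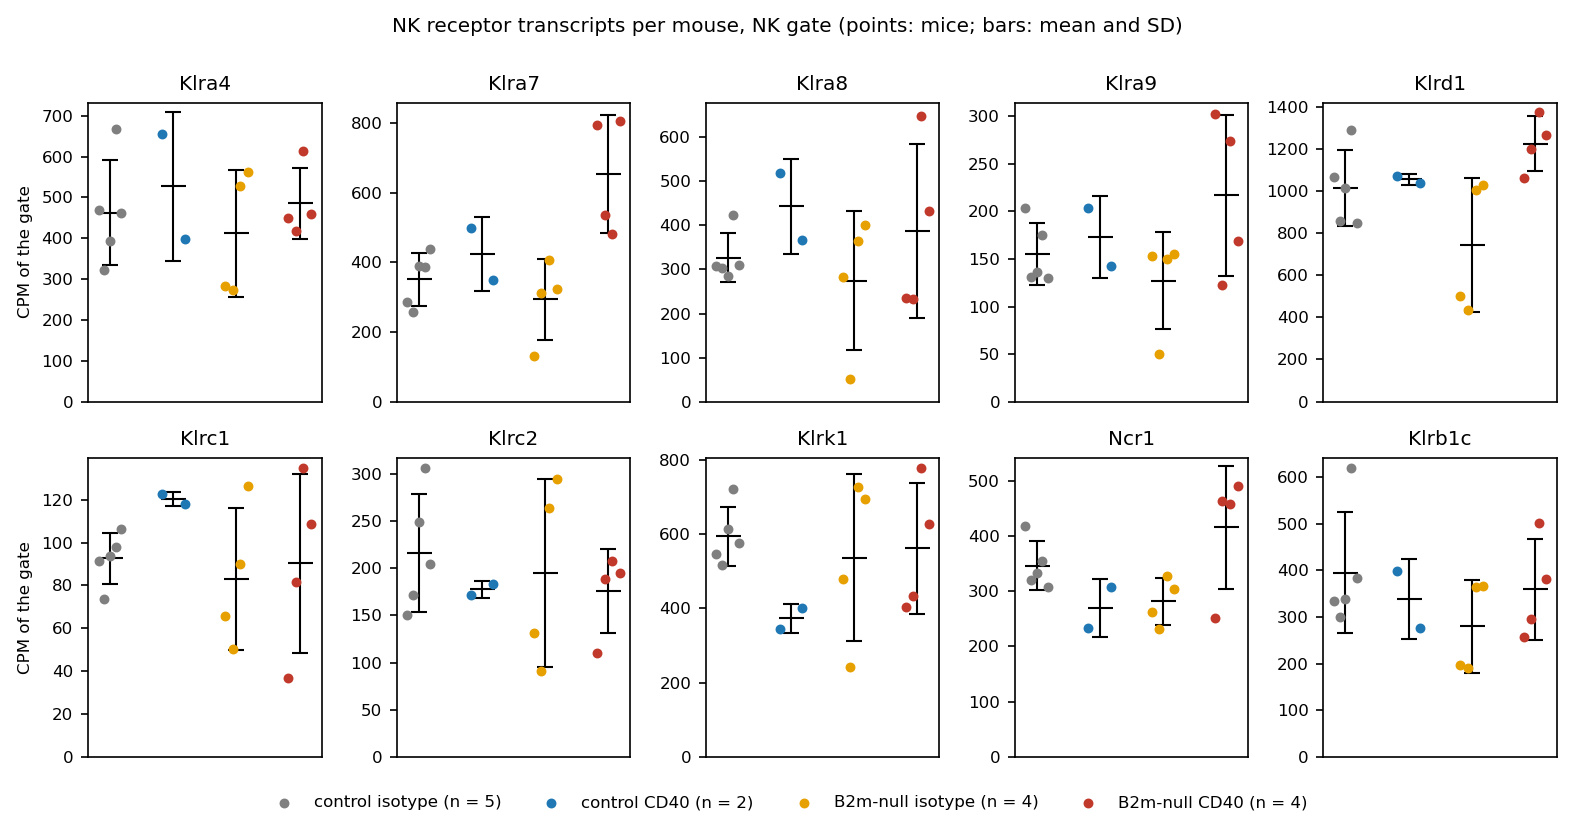
Level of each of the 10 receptor genes in NK-gated cells, in CPM per mouse (points), with the mean and SD of each group (5 isotype and 2 anti-CD40 mice with control tumours, 4 and 4 with B2m-null tumours). For Klra7 and Klrd1 every B2m-null CD40 mouse lies above every B2m-null isotype mouse, with means of 655 against 294 CPM and 1224 against 742 CPM.

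Klrd1 (CD94) stood at 502, 433, 1006 and 1026 CPM in B2m-null isotype mice and 1060, 1197, 1372 and 1267 in B2m-null CD40 mice. The ranges did not overlap, but the 2 highest isotype mice, both of replicate 2, stood at 1006 and 1026 CPM, just under the lowest treated mouse at 1060. The log2 change was 0.81 ± 0.23 (adjusted p = 0.04493). In control tumours Klrd1 was 1064, 858, 1013, 1287 and 847 CPM under isotype and 1072 and 1037 under anti-CD40, a log2 change of 0.14 ± 0.26 (adjusted p = 0.8475). The interaction was 0.67 ± 0.35 (adjusted p = 0.4331).

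The call for Klrd1 was the less stable of the 2. It passed in 16 of 35 alternatives, with a positive change in each (0.29 to 1.60). Like that of Klra7, it was lost with pools, stricter or cluster-based gates, thinned cells and at least 50 cells per mouse. It was lost in 13 of the 23 fits that left out a mouse or a lane, with adjusted p from 0.0516 to 0.218: those without either B2m-null CD40 replicate, B2m-null isotype replicate 1 (0.42) or control isotype replicate 1, and those without B2m-null CD40 mouse 2, 3 or 4, B2m-null isotype mouse 1 or 2, either control CD40 mouse, or control isotype mouse 1 or 3.

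The partners of Klrd1 did not pass with it. Klrc1 (NKG2A, inhibitory) stood at 65.5, 50.4, 90.1 and 126 CPM in B2m-null isotype and 36.8, 81.6, 135 and 108 in B2m-null CD40 mice (log2 change 0.18 ± 0.29, adjusted p = 0.7955). In control tumours the 5 isotype mice held 91.3, 73.7, 93.8, 97.7 and 106 CPM and the 2 CD40 mice 122 and 118, which did not overlap, with a log2 change of 0.46 ± 0.29 (adjusted p = 0.4468). Klrc2 (NKG2C, activating) stood at 131, 90.7, 264 and 295 CPM in B2m-null isotype and 110, 189, 208 and 195 in B2m-null CD40 (−0.14 ± 0.30, adjusted p = 0.8595). Its control values were 151, 172, 249, 307 and 205 CPM under isotype and 171 and 184 under anti-CD40 (−0.19 ± 0.33, adjusted p = 0.8288). In both B2m-null groups the lowest Klrc1 and Klrc2 values came from replicate 1 mice.

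Ncr1 (NKp46) stood at 262, 232, 328 and 304 CPM in B2m-null isotype mice and 250, 463, 457 and 490 in B2m-null CD40 mice. Mouse 1 of the treated group lay among the isotype mice and the other 3 lay above them all. The log2 change was 0.70 ± 0.20, which missed the threshold at an adjusted p of 0.0521, and it passed in 9 of 35 alternatives, among them DESeq2 (0.69, adjusted p = 0.0332) and the fit without that mouse (0.87, adjusted p = 0.00738). Over all 35 its change lay between 0.10 (adjusted p = 0.782, with cluster classes) and 0.98. In control tumours the direction was downward: 418, 319, 333, 354 and 307 CPM under isotype against 233 and 307 under anti-CD40 (−0.28 ± 0.23, adjusted p = 0.5789). Of the 10 members, Ncr1 had the largest interaction, 0.98 ± 0.30 (unadjusted p = 0.004409, adjusted p = 0.1644), and DESeq2 gave 0.98 with an adjusted p of 0.0419.

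Klrk1 (NKG2D) stood at 546, 516, 615, 721 and 576 CPM in control isotype mice and at 345 and 400 in control CD40 mice. Both treated mice lay below all 5 isotype mice, but the log2 change of −0.60 ± 0.31 did not pass (adjusted p = 0.3382). In B2m-null tumours the values were 480, 242, 728 and 696 CPM under isotype and 405, 434, 780 and 629 under anti-CD40, with ranges that overlapped in part (0.17 ± 0.26, adjusted p = 0.7833). With NK cells taken from clusters in place of the gate, Klrk1 in control tumours changed by −0.90 (adjusted p = 0.00697) and Ncr1 by −0.78 (adjusted p = 0.0073). In the NK gate of control tumours the 7 cDC markers summed to 24.5 to 35.7 CPM under anti-CD40 (1 of 7 at 0) against 109.6 to 378.7 under isotype (0 of 7), and 10 monocyte and macrophage markers to 326 to 433 against 539 to 830 CPM. Their part in these values was not tested.

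Klrb1c (NK1.1), the surface marker by which NK cells of this strain are usually recognised, stood at 197, 192, 365 and 366 CPM in B2m-null isotype and 258, 297, 502 and 382 in B2m-null CD40 mice (0.42 ± 0.28, adjusted p = 0.4189). Under control tumours it was 333, 301, 338, 620 and 384 CPM with isotype and 399 and 277 with anti-CD40 (−0.14 ± 0.31, adjusted p = 0.8781). Its ranges overlapped in all 4 comparisons of groups.

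For each comparison the counts are these. Anti-CD40 in control tumours gave 0 of 10 members against 2.72% of genes, with 0 of 10 at an unadjusted p under 0.05 and 0 by DESeq2, by RLE scaling and by limma-voom. B2m-null against control tumours under isotype gave 0 of 10 members against 0.0% of genes (0 of 6114), with 0 members under an unadjusted p of 0.05 and 0 by the other tools; 344 genes had an unadjusted p under 0.05, and DESeq2 called 15 genes. All 10 members had an adjusted p of at least 0.9241 there, with log2 differences from −0.42 (Klrb1c and Klrd1) to 0.01 (Klrc2). B2m-null against control under anti-CD40 gave 0 of 10 members against 0.589% of genes. There Klra7 (0.65 ± 0.30) and Ncr1 (0.69 ± 0.24) had an unadjusted p under 0.05, at 0.04306 and 0.009459, and DESeq2 called 1 member, Ncr1 (adjusted p = 0.0465). Klrk1 was higher in all 4 B2m-null CD40 mice than in both control CD40 mice (0.65 ± 0.32, adjusted p = 0.3849).

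The interaction of genotype and treatment gave 0 of 10 members against 0.54% of genes, with 2 under an unadjusted p of 0.05 (Klra7 and Ncr1) and 1 by DESeq2 (Ncr1). The median log2 value of the 10 members was 0.19 for anti-CD40 in control tumours and 0.49 in B2m-null tumours, against −0.02 and −0.01 for all genes tested. For B2m-null against control tumours it was −0.17 under isotype and 0.20 under anti-CD40, and for the interaction it was 0.56, while the median of all genes lay within 0.01 of 0. The comparisons share groups of mice, so these medians are not independent of one another.

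**Figure D3:**
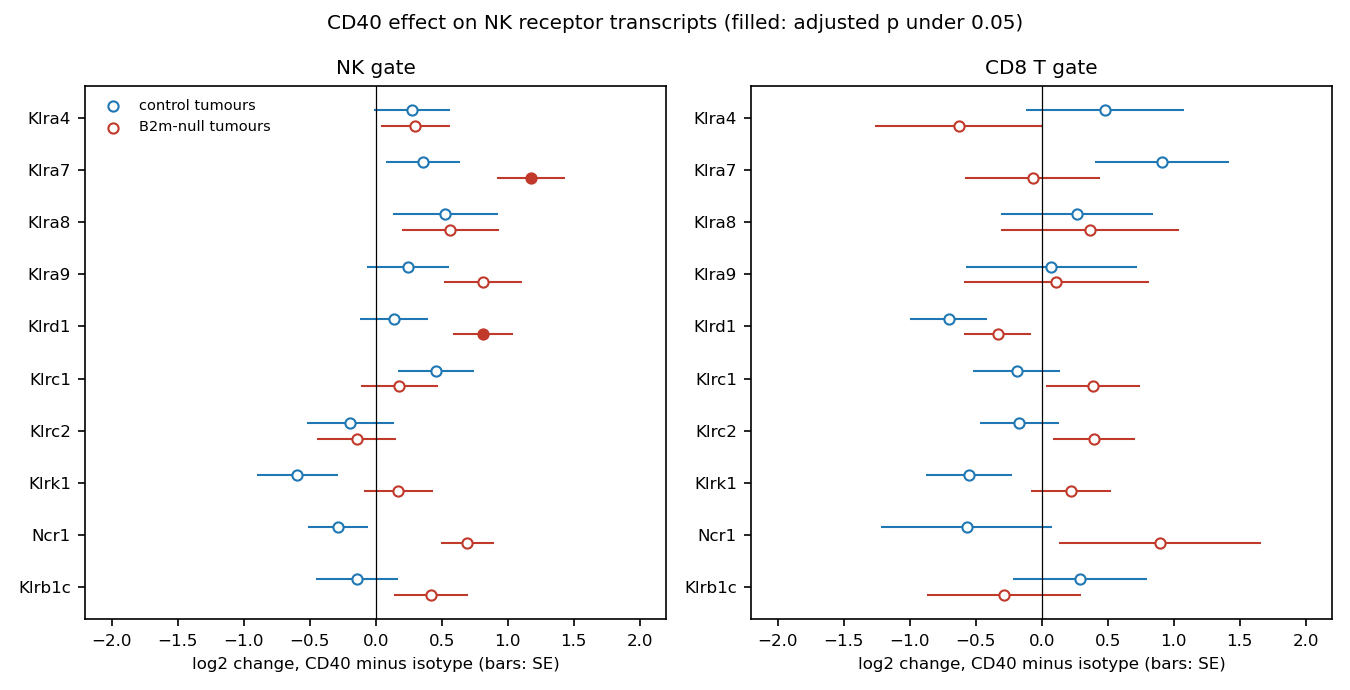
Log2 difference between anti-CD40 and isotype (points) with its SE (bars) for the 10 receptor genes, in NK-gated and CD8 T-gated cells, separately for control and B2m-null tumours; filled points passed at an adjusted p of 0.05. Only Klra7 (1.18) and Klrd1 (0.81) in NK cells of B2m-null tumours are filled.

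The shares of NK cells with Klra7, Klrd1 and Ncr1, pooled over the cells of a group, were highest in B2m-null CD40 mice at equal depth. Only cells with at least 2000 UMIs enter, so each group is represented by its deeper cells. These were 255 of 979 control isotype, 105 of 465 control CD40, 209 of 522 B2m-null isotype and 176 of 321 B2m-null CD40 cells. After thinning to 2000 UMIs, Klra7 was seen in 25.9% of 255 control isotype cells, 31.4% of 105 control CD40 cells, 33.0% of 209 B2m-null isotype cells and 43.2% of 176 B2m-null CD40 cells. Klrd1 was seen in 72.2%, 77.1%, 73.2% and 88.6%. The exact 95% intervals of the last 2 shares were 66.7% to 79.1% and 83.0% to 92.9%, and cover counting error only. Ncr1 was seen in 39.6%, 35.2%, 40.2% and 54.5%, and Klrk1 in 60.4%, 43.8%, 63.6% and 63.6%. Without thinning Klra7 was seen in 31.8%, 32.9%, 39.3% and 45.8%. The Klra7 share of B2m-null isotype cells lay above that of control isotype cells while its CPM lay below, so no order is read between those groups. Cells are not replicates, so the shares carry no test, and the sums over the thinned cells gave log2 changes of 0.67 for Klra7 (adjusted p = 0.286) and 0.29 for Klrd1 (adjusted p = 0.585) in B2m-null tumours.

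In CD8 T-gated cells none of the 10 receptors passed in any comparison, although many other genes did. Anti-CD40 in control tumours gave 0 of 10 members against 30% of the 10345 genes tested, and in B2m-null tumours 0 of 10 against 11.4%. The comparison of tumour genotypes gave 0 of 10 against 0.242% under isotype and 0 of 10 against 4.93% under anti-CD40, and the interaction 0 of 10 against 8.14%. With a mouse or lane left out, the genes called ranged from 763 to 3898 (3103 in the reported fit), 263 to 2223 (1182), 5 to 178 (25), 6 to 929 (510) and 7 to 1327 (842) in that order, and with pools as the unit they were 61, 79, 3, 2 and 0. At an unadjusted p under 0.05 there were 1, 0, 3, 0 and 0 members in that order. DESeq2, RLE scaling and limma-voom called 0 in each.

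Klrd1 in CD8 T cells stood at 705, 588, 576, 798 and 488 CPM in control isotype mice and at 453 and 308 in control CD40 mice. Both treated mice were below all 5 isotype mice, the opposite direction to NK cells of B2m-null tumours. The log2 change was −0.70 ± 0.29 (unadjusted p = 0.02744, adjusted p = 0.07698), and it passed in 6 alternatives, among them thinned cells (−0.81, adjusted p = 0.0424) and clusters (−0.88, adjusted p = 0.00559). In B2m-null tumours Klrd1 was 301, 370, 454 and 568 CPM under isotype and 238, 212, 410 and 364 under anti-CD40, with overlapping ranges (−0.33 ± 0.25, adjusted p = 0.4418). Under isotype, B2m-null tumours differed from control by −0.58 ± 0.24 (unadjusted p = 0.02773, adjusted p = 0.2891).

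Klra7 in CD8 T cells was low, at 19.3, 16.5, 15.02, 4.13 and 11.9 CPM in control isotype and 28.8 and 21.8 in control CD40 mice. These ranges did not overlap (0.91 ± 0.51, adjusted p = 0.189). B2m-null isotype mice held 5.28, 22.8, 49.97 and 47.4 CPM and B2m-null CD40 mice 116, 16.7, 25.7 and 35.3, the highest value coming from mouse 1 with 77 CD8 T cells. Under isotype, B2m-null against control gave 1.53 ± 0.51 (unadjusted p = 0.00829, adjusted p = 0.1999), and this turned to −0.09 (adjusted p = 0.99) without B2m-null isotype replicate 2. That replicate holds the 2 mice at 49.97 and 47.4 CPM.

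Klrc1 in CD8 T cells was 102, 61.1, 87.1, 112 and 65.1 CPM in control isotype mice and 52.8, 51.3, 47.4 and 57.9 in B2m-null isotype mice. All 4 B2m-null mice were below all 5 control mice, with a log2 difference of −0.77 ± 0.35 (unadjusted p = 0.03844, adjusted p = 0.3295). Under anti-CD40 it was 95.2 and 53.7 in control and 19.3, 40.3, 83.2 and 73.2 in B2m-null mice, which overlapped. Klrc2 was 102, 61.8, 72.7, 124 and 93.7 CPM in control isotype, 93.2 and 66.9 in control CD40, 73.9, 57.0, 65.8 and 84.2 in B2m-null isotype and 61.2, 48.0, 113 and 99.6 in B2m-null CD40, with no range apart from the others.

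Klrk1, a costimulatory receptor on CD8 T cells, stood at 233, 205, 213, 286 and 171 CPM in control isotype and 174 and 124 in control CD40 mice (−0.55 ± 0.33, adjusted p = 0.2153). In B2m-null tumours it was 121, 114, 170 and 221 under isotype and 129, 90.5, 227 and 227 under anti-CD40 (0.22 ± 0.30, adjusted p = 0.7138). The interaction was 0.78 ± 0.44 (adjusted p = 0.3172), −0.09 (adjusted p = 0.925) without B2m-null CD40 replicate 2, 1.19 (adjusted p = 0.0281) without B2m-null CD40 replicate 1 and 0.79 (adjusted p = 0.0337) with no filter on low counts. Ncr1, at most 29.0 CPM, was higher in the 4 B2m-null CD40 mice (29.0, 8.05, 7.62 and 10.6) than in the 2 control CD40 mice (6.18 and 4.85), a log2 difference of 1.03 ± 0.67 (adjusted p = 0.4328). Klra4, Klra8, Klra9 and Klrb1c had group means of 3.20 to 11.6 CPM in CD8 T cells, and their log2 changes had SEs of 0.51 to 0.95.

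**Figure D4:**
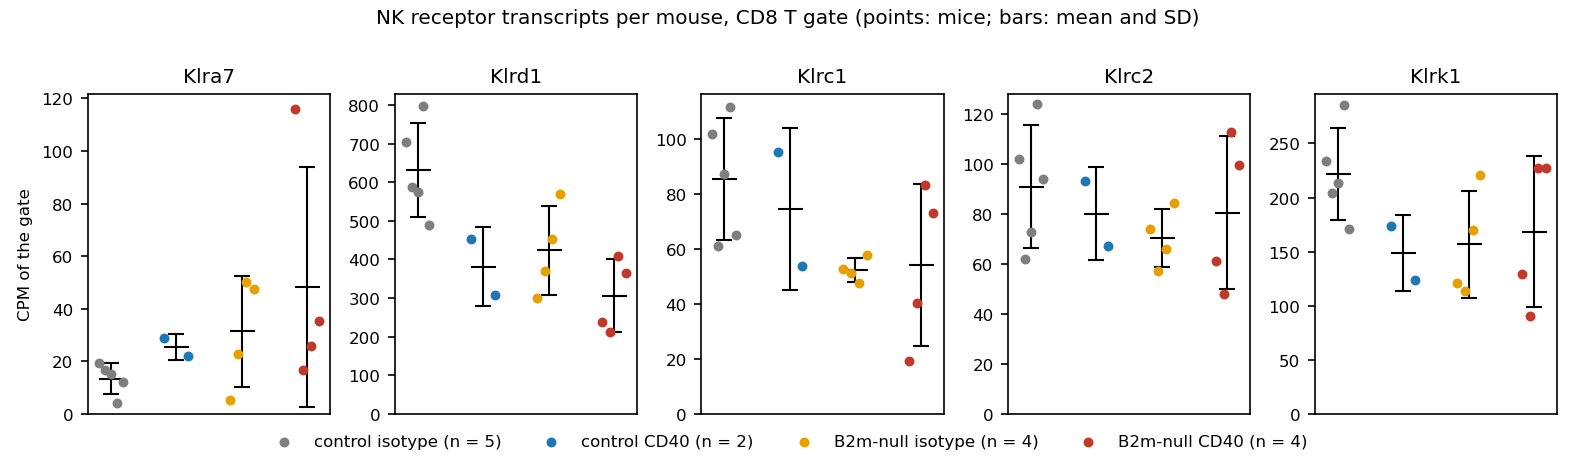
Level of Klra7, Klrd1, Klrc1, Klrc2 and Klrk1 in CD8 T-gated cells, in CPM per mouse (points), with the mean and SD of each group (5 isotype and 2 anti-CD40 mice with control tumours, 4 and 4 with B2m-null tumours). Klrd1 is lower in both control CD40 mice (453 and 308 CPM) than in all control isotype mice, and no gene passed the test.

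In the CD8 T gate, too, markers of other cells and of the gate itself moved with the groups, and their part in these values was not tested. The 6 T-cell markers summed to 3132.7 to 3610.1 CPM in control isotype and 4022.7 to 4072.5 in control CD40 mice. In B2m-null isotype mice they summed to 2490.6 to 2921.1 CPM, and in B2m-null CD40 mice to 3879.7 to 6828.9. The 7 cDC markers, whose cells carry Klrd1 and Klrk1, summed to 218 to 352 CPM in control isotype, 38.1 to 40.2 in control CD40, 341 to 798 in B2m-null isotype and 20 to 64.4 in B2m-null CD40 mice. The 8 ILC1 markers summed to 629 to 753, 1116 to 1163, 806 to 1219 and 650 to 1283 CPM in the same order of groups. The 4 melanoma markers summed to 10.3 to 198.8, 123 to 354, 12.1 to 31.7 and 4.5 to 799 CPM. Of 13918 CD8 T-gated cells, counting those not assigned to a mouse, 81.0% fell into clusters named as CD8 T from the same markers and 1.5% into NK-like ones.

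The other receptors and adaptors of NK cells were read from a list of 36 genes, of which 23 could be tested in NK cells and 4 served in the gate and were left out of the counts (Klre1, Klri2, Tyrobp and Fcer1g). Of those 4, Tyrobp passed upward with anti-CD40 in both genotypes and Fcer1g in B2m-null tumours. Tyrobp in control tumours lost its call without control CD40 mouse 1 (0.52, adjusted p = 0.496), and Fcer1g without B2m-null CD40 replicate 2 (0.56, adjusted p = 0.0669). In control tumours 4 rose with anti-CD40 and 0 fell, beside 2.72% of all genes. In B2m-null tumours 4 rose and 0 fell, beside 4.82%. Klrg1, an inhibitory receptor for cadherins, had the largest change in both. It averaged 31.3 ± 14.6 CPM in control isotype, 171 ± 48.4 in control CD40, 36.7 ± 13.5 in B2m-null isotype and 259 ± 39.4 in B2m-null CD40 mice. Its log2 changes were 2.55 ± 0.32 (adjusted p = 0.0001253) and 3.17 ± 0.33 (adjusted p = 2.531e-05), and they passed in all 33 and all 35 alternatives. Both changes were larger than that of any of the 10 members.

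The adaptors of the members were among the rest of that list. Hcst (DAP10), the partner of Klrk1, rose in NK cells of control tumours from 265 ± 66.2 to 879 ± 37.6 CPM (log2 change 1.80 ± 0.29, adjusted p = 0.001368), where Klrk1 itself was lower in both treated mice. In B2m-null tumours Hcst averaged 346 ± 109 and 408 ± 173 CPM and did not pass. Zap70, a kinase downstream of several of these receptors, rose in both genotypes (0.85 ± 0.21, adjusted p = 0.02856, and 0.89 ± 0.20, adjusted p = 0.01607), though its sign turned in 1 alternative for each (−0.07 and −0.10). Cd244a (2B4, the receptor for Cd48) rose in control tumours (0.85 ± 0.19, adjusted p = 0.01922). Klra5 (Ly49E; 2.41 ± 0.63, adjusted p = 0.03292) and Sh2d1a (the adaptor SAP; 0.83 ± 0.23, adjusted p = 0.04116) rose in B2m-null tumours. For the genotype comparisons and the interaction, 0 of the 23 passed. Of the 23 fits that left out a mouse or lane, Klrg1 passed in all, Hcst in 22 and Zap70 in 16 (control) and 19 (B2m-null). Cd244a passed in 17, Sh2d1a in 10 and Klra5 in 13 of 22. Such fits left out mice and lanes of all 4 groups, so some removed no mouse of the groups compared.

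In CD8 T cells 29 genes of that list could be tested. With anti-CD40 in control tumours 6 rose and 3 fell, a share near the 30% of all genes that passed there. Both control CD40 mice came from the same pool, and far fewer genes passed there with pools as the unit. Hcst rose from 177 ± 44.3 to 1078 ± 133 CPM (2.63 ± 0.28, adjusted p = 2.483e-05), Klra3 (Ly49C) by 2.14 ± 0.60 (adjusted p = 0.01301), Slamf6 by 1.70, Klrg1 by 1.65 and Klrb1f by 1.25. Without control CD40 mouse 1 the change of Klra3 was 0.33 (adjusted p = 0.779), and it passed in 21 of 23 fits that left out a mouse or lane. Havcr2 (TIM-3) fell from 168 ± 43.8 to 59.8 ± 20.9 CPM (adjusted p = 0.001296), and Cd244a and Pdcd1 (PD-1) fell by 1.35 and 0.93 on the log2 scale. Of those 23 fits, Havcr2 and Cd244a passed in 22, Slamf6 and Klrg1 in 21, Pdcd1 in 20 and Klrb1f in 19. Klrb1f changed by 0.76 (adjusted p = 0.352) without control CD40 mouse 2, and Klrg1 by 1.09 (adjusted p = 0.243) without control isotype replicate 1. Havcr2 and Pdcd1 encode inhibitory receptors of long-stimulated T cells. In B2m-null tumours 4 rose and 5 fell, beside 11.4% of all genes: Cd160 (1.36), Hcst (1.30) and Sh2d1a (0.87) were among those that rose, and Klrb1b (−1.58), Cd244a (−1.42), Syk (−1.31), Havcr2 (−1.31) and Tyrobp (−0.95) were those that fell. Tyrobp had the other sign in an alternative (0.64). In the same gate of B2m-null tumours the 7 cDC markers summed to 341 to 798 CPM under isotype and 20 to 64.4 under anti-CD40. In control tumours they summed to 218 to 352 and 38.1 to 40.2 CPM. Whether transcripts of other cells had a part in the falls of either genotype was not tested. Cd160 still passed without B2m-null CD40 replicate 2, while Hcst, Sh2d1a, Cd244a, Syk, Havcr2 and Tyrobp did not. In that fit Hcst changed by 0.61 (adjusted p = 0.157), Sh2d1a by 0.45 (adjusted p = 0.237) and Cd244a by −1.06 (adjusted p = 0.149). Syk changed by −0.90 (adjusted p = 0.269), Havcr2 by −1.21 (adjusted p = 0.075) and Tyrobp by −0.88 (adjusted p = 0.147). Klrb1b passed in 17 of 23 fits that left out a mouse or lane, with −1.42 (adjusted p = 0.227) without B2m-null isotype replicate 2.

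Between genotypes, 0 of the 29 passed under isotype, and under anti-CD40 Lag3 was lower (−1.05, adjusted p = 0.02762) and Cd160 higher (0.95, adjusted p = 0.02355) in B2m-null tumours. Of 23 fits that left out a mouse or lane, Lag3 passed in 18 and Cd160 in 19, with −1.18 (adjusted p = 0.215) and 0.69 (adjusted p = 0.446) without control CD40 mouse 2. For the interaction, Hcst (−1.33, adjusted p = 0.04655) and Cd160 (1.32, adjusted p = 0.01923) passed. The Hcst interaction lay between −2.04 and −0.92 over 33 alternatives and passed in 12 of them. That of Cd160 passed in 26 of 33, and was 1.18 (adjusted p = 0.169) without control isotype replicate 1. Between genotypes under anti-CD40 4.93% of all genes passed, and for the interaction 8.14%.

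The ligands of these receptors were read from a list of 16 genes, 9 of them testable in NK cells. H2-T23, whose Qa-1 product is the ligand of CD94 with NKG2A or NKG2C, averaged 384 ± 51.7 CPM in NK cells of control isotype mice, 599 ± 44.5 in control CD40, 298 ± 38.0 in B2m-null isotype and 338 ± 34.4 in B2m-null CD40 mice. It rose with anti-CD40 in control tumours (0.72 ± 0.16, adjusted p = 0.01804), a call kept in 17 of 23 fits that left out a mouse or lane and lost without control CD40 replicate 1 (0.44, adjusted p = 0.227). It was lower in B2m-null than in control tumours under anti-CD40 (−0.78 ± 0.17, adjusted p = 0.04259), which passed in 13 of 33 alternatives. Of the classical class I genes, H2-K1 rose in both genotypes (0.43 and 0.70) and H2-D1 in B2m-null tumours (0.99), with Cd48 (0.67) and B2m (0.59), making 2 of 9 and 4 of 9 that rose, beside 2.72% and 4.82% of all genes. In control tumours H2-K1 passed in 12 of 33 alternatives, and without control CD40 mouse 2 its change was 0.37 (adjusted p = 0.403). Cd48 passed in 15 of 23 fits that left out a mouse or lane.

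By cell type, H2-T23 was highest in plasmacytoid dendritic cells (940 ± 125 CPM), which also held the most Klrd1 outside NK, gamma-delta T and CD8 T cells, and lowest in melanoma-like cells (42.0 ± 10.3). The 6 mice with at least 20 melanoma-like cells all carried control tumours (their lowest B2m level was 953 CPM), so no B2m-null tumour cells enter these melanoma-like levels. Their cells held 596 ± 132 CPM of H2-D1 and 546 ± 99.4 of H2-K1. Of the NKG2D ligands listed, Raet1d, Raet1e, H60b and H60c stayed at or below 1.73 CPM on average in NK, CD8 T, cDC, macrophage and melanoma-like cells, and Ulbp1 was 29.2 CPM in CD8 T, 25.4 in NK and 2.43 in melanoma-like cells.

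Effector genes moved in the same comparison as Klra7 and Klrd1. Of 20 effector and cytokine-response genes, 4 served in the NK gate and were left out of the count (Gzma, Prf1, Eomes and Il2rb). Of those 4, Gzma and Prf1 passed upward and Eomes downward with anti-CD40 in B2m-null tumours, and Prf1 upward in control tumours. Eomes lost its call without B2m-null isotype replicate 2 (−0.57, adjusted p = 0.229), and Prf1 in control tumours without control CD40 mouse 1 (0.78, adjusted p = 0.427). Of the rest 15 were tested in NK cells, and 6 rose and 0 fell with anti-CD40 in B2m-null tumours: Ccl5 (2.24), Gzmc (1.99), Ccl4 (1.75), Il12rb1 (1.60), Ifng (1.58) and Gzmb (1.47). Of all genes 4.82% passed there. Of the 23 fits that left out a mouse or lane, Ifng passed in all, Ccl4 in 22, Ccl5 and Gzmb in 21, Il12rb1 in 18 and Gzmc in 17. Without B2m-null CD40 replicate 2, Ccl5 changed by 0.88 (adjusted p = 0.234) and Gzmc by 1.41 (adjusted p = 0.153). The other 4 NK comparisons gave 0 of 15. Of 8 genes listed for ILC1, 7 were tested, and Cxcr6 (2.45 and 1.59) and Itga1 (1.37 and 1.496) rose with anti-CD40 in both genotypes, 2 of 7 in each, beside 2.72% and 4.82% of all genes. In control tumours Itga1 changed by 0.75 (adjusted p = 0.33) without control CD40 replicate 1, and Cxcr6 by 1.71 (adjusted p = 0.0609) without control CD40 mouse 2. In B2m-null tumours, without B2m-null isotype replicate 2, Cxcr6 changed by 1.08 (adjusted p = 0.339) and Itga1 by 1.62 (adjusted p = 0.125).

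Across 111 profiles (each 1 gate in 1 mouse, over 11 gates and 12891 genes), the gene whose level followed each member most closely was found by Pearson's r on log2(CPM + 1). The profiles of a mouse share a library, and the r values mostly describe which cell types hold a gene. For Klra7 it was Gzma (0.887), then Samd3 (0.885) and Klre1 (0.883). Klra8 (0.898), Ncr1 (0.907) and Klrb1c (0.868) were each closest to Klrb1a, Klra4 to Styk1 (0.899) and Klra9 to Khdc1a (0.87). Klrc1 was closest to Fasl (0.917) and Eomes (0.916), Klrc2 to Prf1 (0.92), Klrd1 to Cd7 (0.876) and Klrk1 to Serpinb6b (0.849). Gzma, Klre1, Eomes and Prf1 are themselves markers of the NK gate.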

How the data were processed

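Deposited were UMI counts per gene and cell barcode, and hashtag counts stand in the last rows of each matrix, per the file headers. The authors processed the reads with Cell Ranger 3.0.0 (mm10) and bcl2fastq 2.20.0.422, per the submitters' processing notes. The 3' version 3 chemistry and the CD45 enrichment are given by the labels' protocols. The labels list 3 hashtags per pool, and 6 of the 8 matrices hold 2 and 2 hold 3; each was taken as 1 mouse.

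From the counts, cells were assigned to mice by a mixture fit to the hashtag counts (posterior of at least 0.9, at least 20 hashtag counts), and 10758 hashtag doublets (9.23%) and 18333 unassigned barcodes were left out; doublets within a mouse are not seen this way. A cell was kept with 200 or more genes detected and a mitochondrial share of up to 10%. Gates counted marker UMIs (for CD8 T cells at least 2 T-cell and 1 Cd8 UMI), and their thresholds were set after seeing the data. As a check, 29760 cells were clustered with leidenalg 0.10.2 (2000 variable genes, 30 principal components, 20 neighbours, resolution 1.5, 20 clusters). Cells not assigned to a mouse were included here. Of 2872 NK-gated cells, 87.8% fell into clusters named as NK from the same markers.

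Counts were summed per mouse within a gate, with at least 20 cells (24 to 337 NK cells and 45790 to 1021650 UMIs per mouse in the fits). They were tested with edgeR 4.0.16 in R 4.3.3 (TMM scaling, filterByExpr, glmQLFit and glmQLFTest) in 1 fit of the 4 groups. The p-values were adjusted over all genes tested. In simulated counts of the NK gate, 25.8% of 2-fold changes passed for anti-CD40 in control tumours and 47.9% in B2m-null tumours. In the CD8 T gate the shares were 53.5% and 35.4%. A gene that did not pass may therefore still have changed. Alternatives used RLE scaling, DESeq2 1.42.0, limma 3.58.1 with the pool as a correlated block, no filter, pools as the unit, other gates and thinned cells, and left out each mouse and each lane; a fit of 3 groups without a replicate block was added after seeing the data. Mice of a pool share a lane. The correlation within pools in the limma fit was 0.028 in NK cells and 0.25 in CD8 T cells. Fits with a mouse or lane left out covered all 4 groups for every comparison. Some of them therefore removed no mouse of the groups compared, and their counts of passes overstate stability. Leaving out either control CD40 lane kept both mice of that group. Printed CPM values are sums divided by the total UMIs of the gate in that mouse. Intervals of shares are exact binomial intervals at 95%.

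The 10 receptors, the gate markers and the lists of other receptors, ligands and effectors were chosen with earlier results of these data known. Named genes are the 10 receptors, at most the 8 genes with the largest change among those of a list that passed, and the 3 genes most like each receptor (mean of at least 5 CPM). Klrd1 has no promoter shown. Protein sequences were not used here.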

Additional observations from a re-analysis of the deposited data

Results flagged for a closer look

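In groups of 4 or 5 mice, 60 sets of member levels were searched for a mouse far from the others, and 6 were found; chance alone gives about 5% of groups.

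In NK-gated cells, control isotype mouse 4 held the most Klrb1c (620 CPM from 184 counts, with the nearest mouse at 384) and the most Klra8 (425 CPM from 126 counts, nearest 309). B2m-null isotype mouse 2 held the least Klra9, at 50.4 CPM from 5 counts, against 150 CPM in the nearest mouse. B2m-null CD40 mouse 1 held the least Ncr1, at 250 CPM from 34 counts, against 457 CPM in the nearest mouse. That mouse kept the Ncr1 ranges of the 2 B2m-null groups from separating.

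In CD8 T-gated cells, B2m-null isotype mouse 3 held the most Klra9, at 28.5 CPM from 5 counts with the nearest mouse at 4.78. B2m-null CD40 mouse 1, which had 77 CD8 T cells, held the most Ncr1, at 29.0 CPM from 9 counts with the nearest mouse at 10.6.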

How the results depend on the processing

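Over 100 pairs of a member and a comparison, 2 passed in the reported fits, 17 under at least 1 alternative and 83 in no fit. Of the log2 changes recomputed for members called anywhere, 514 kept direction and side of the threshold, 33 came to pass, 26 no longer passed and 3 turned sign, all in CD8 T cells: Klra7 between genotypes under isotype without B2m-null isotype replicate 2 (−0.089, with up to 2.3 in the other left-out fits), and, without B2m-null CD40 replicate 2, Klrc2 under anti-CD40 in B2m-null tumours (−0.392, otherwise up to 0.781) and the Klrk1 interaction (−0.087, otherwise up to 1.348). The causes were not tested.

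For anti-CD40 in NK cells of B2m-null tumours, where 2 members passed, 4 passed with no filter on low counts, 1 with at least 50 cells per mouse (Ncr1, 0.731, whereas Klra7 at 0.889 with adjusted p = 0.111 and Klrd1 at 0.495 with adjusted p = 0.156 no longer passed), and 0 with pools as the unit (8 genes called), with pools that include unassigned cells (22 genes), in the stricter gate, with cluster classes and with thinned cells; leaving out mice or lanes gave 0 to 3. Where 0 members passed in NK cells, 2 passed with cluster classes for anti-CD40 in control tumours. Between genotypes under anti-CD40, 1 passed with DESeq2, 1 with at least 50 cells per mouse and 1 with cluster classes. For the interaction, 1 passed with DESeq2 and 0 to 1 with mice or lanes left out. In CD8 T cells, anti-CD40 in control tumours gave 2 with no filter, 1 with cluster classes, 1 with thinned cells and 0 to 2 with mice or lanes left out. There, anti-CD40 in B2m-null tumours gave 0 to 1 with mice or lanes left out, the genotypes under isotype 3 with no filter, and the interaction 1 with no filter and 0 to 1 with mice or lanes left out.

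Counts over all genes moved more. In NK cells the 166 and 295 genes called for anti-CD40 (control, B2m-null) became 4 and 8 with pools as the unit, 74 and 35 with thinned cells, 403 and 574 with cluster classes, and 25 to 221 and 118 to 336 with mice or lanes left out. The 36 genes between genotypes under anti-CD40 and the 33 of the interaction became 0 and 0 with pools and 104 and 113 with DESeq2. In CD8 T cells 3103, 1182, 25, 510 and 842 became 61, 79, 3, 2 and 0 with pools and 1622, 452, 11, 274 and 290 with thinned cells, and 763 to 3898, 263 to 2223, 5 to 178, 6 to 929 and 7 to 1327 with mice or lanes left out.

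Replicate numbers were not taken as pairs: same-numbered pools deviated together with correlations of 0.149, 0.266 and 0.067 in NK cells and 0.185, 0.381 and 0.062 in CD8 T cells. With the replicate block, 3 members passed for anti-CD40 in NK cells of B2m-null tumours (3 without the block in the same 3 groups) and 439 genes against 292; between genotypes under isotype 0 members passed, and 8 genes against 0. In CD8 T cells 0 members passed with the block in either comparison. In the mice with the fewest UMIs, CD8 T values rest on few counts (5 of Klra9 in B2m-null isotype mouse 3, 9 of Ncr1 in B2m-null CD40 mouse 1), and of 40 shares of cells with a UMI, 11 moved with the thinning depth.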
